A study of Mus musculus with 6 samples.

Results

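The livers of p62S351E/+ and p62+/+ mice were compared for 41 genes of fatty acid oxidation, ketone body metabolism, fasting and lipid droplets, many of which are targets of the nuclear receptor PPARα. The genes were chosen by name as rows of a table of 24411 gene symbols, and all 41 were found. They were sorted into 9 submodules, from the uptake of fatty acids to lipid droplet proteins. Of the 41 genes, 33 passed the filter on low counts and were tested, and 8 did not pass it.

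RNA-seq was performed on whole livers of 3 p62+/+ (wild-type) and 3 p62S351E/+ mice, all at postnatal day 19 (P19). In the p62S351E/+ mouse, a single allele of Sqstm1, the gene encoding p62, carries Glu in place of Ser351, the residue that matches Ser349 of human p62. The change mimics phosphorylation of p62, and the comparison asks how the liver transcriptome differs in mice that carry this form of p62 in every cell. The paper reports that p62S351E/+ mice of earlier ages were severely growth-retarded. Their serum had low glucose and high cholesterol, which the paper reads as malnutrition. The part of this state in the results was not tested. Per the methods of the study, the allele was made by prime editing in mouse embryonic stem cells, and the heterozygotes came from in vitro fertilization with sperm of a single male chimera of low chimerism. Neither the labels nor the methods give the sex or litter of the mice used here.

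Fatty acids enter hepatocytes through transporters such as CD36, are bound by FABP1, activated to acyl-CoA and carried into mitochondria by the carnitine shuttle, where the beta-oxidation cycle shortens them to acetyl-CoA. Peroxisomes shorten very long and branched chains, and the liver turns part of the acetyl-CoA into ketone bodies for other organs. PPARα, with its partner RXR, drives most of these genes during fasting and suckling, when fat is the main fuel. At P19, mice are close to weaning.

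The 6 libraries held 8696712 to 10341622 expected counts, but only 134911 to 315436 lay outside the 3 genes Rn45s, Lars2 and Mir6236. The 41 genes had 1757 to 1924 counts in p62+/+ livers and 968, 1734 and 1827 counts in p62S351E/+ mice 1, 2 and 3, so that most values rest on few reads. All 10 hepatocyte markers, Alb and Apoa1 among them, were detected in all libraries. Their summed normalized counts were 12551 to 14035 in p62+/+ livers and 20268, 31501 and 14216 in p62S351E/+ livers. Much of this sum was Alb, with 5728 to 6452 against 9713, 16390 and 6542. The markers did not move together. Alb, Apob, Cps1 and Hnf4a were above every p62+/+ liver in each p62S351E/+ liver. Fga, Trf and Tat were above in mice 1 and 2 and within the p62+/+ range in mouse 3. Apoa1, Ttr and Serpina1c were above in mouse 2 but below every p62+/+ liver in mice 1 and 3. Summed counts of 10 brain markers were 2186 to 2563 in p62+/+ livers, only 20 and 31 in the first and second p62S351E/+ livers, and 2364 in the third, so that this library stood with the p62+/+ libraries. Of 8 muscle markers, 4 (Myh4, Tnnt3, Mylpf and Myh6) were at 0 in all libraries. The rest summed to 13 to 17 counts against 0, 0 and 16 and were mostly Pygm, a glycogen phosphorylase, with 12.04, 10.1 and 11.2 normalized counts against 0, 0 and 8.52. The part of these transcripts in the results was not tested. Xist had 70.8, 1505 and 1071 counts in p62+/+ livers and 1, 0 and 1537 in p62S351E/+ livers, so this transcript of the female inactive X chromosome was unevenly spread over the genotypes. Sqstm1 transcripts, which do not tell the alleles apart and therefore do not check the genotype, were 73.0 to 86.4 and 89.9 to 104.7 normalized counts.

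Among the 41 genes, only Acadm passed the threshold in edgeR's quasi-likelihood test (adjusted p below 0.05 and a log2 fold change beyond 1 in either direction). Acadm was higher in p62S351E/+ livers, while 0 of the 33 tested genes were called lower. Over all 5945 genes tested, 50 (0.841%) were called higher and 5 (0.0841%) lower. At an unadjusted p below 0.05, 12 of the 33 genes were higher, beside 536 genes (9.02%) in all, and 1 gene, Fabp1, was lower, beside 330 genes (5.55%). The median log2 fold change of the 33 genes was 0.45, and 29 of them lay above 0, beside a median of -0.03 and 48.0% above 0 over all genes tested. Values in the 3 p62S351E/+ livers all lay above those of the 3 p62+/+ livers for 15 of the 33 genes, beside 714 (12%) of all genes, and all below them for Fabp1 and Acsl1, beside 875 (14.7%). Some genes reached the count filter only through the genotype in which they were high, so these counts describe the tested genes and not all 41. For a single value, 3 mice against 3 allow no exact two-sided permutation p under 0.1.

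The level of the whole list depends on how the libraries are scaled. With library size as the only scaling, the median over all genes moved to -0.68 and that of the 33 genes to -0.25. This size is mostly the 3 genes Rn45s, Lars2 and Mir6236. The share of counts outside them was 3.01% to 3.30% in p62+/+ libraries and 1.30%, 2.25% and 3.12% in p62S351E/+ libraries 1, 2 and 3. With the summed hepatocyte markers as the scale, these medians were -0.61 and -0.17. Under both, 29 of the 33 genes lay above the median of all genes, but only 11 and 12 lay above 0, and no member was called higher. With the summed brain markers as a covariate, the median of the 33 genes was 0.23, 20 of them lay above the all-gene median of 0.01, and none was called. In bulk liver, a larger share of hepatocytes and more of a transcript per hepatocyte cannot be told apart.

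**Figure D1:**
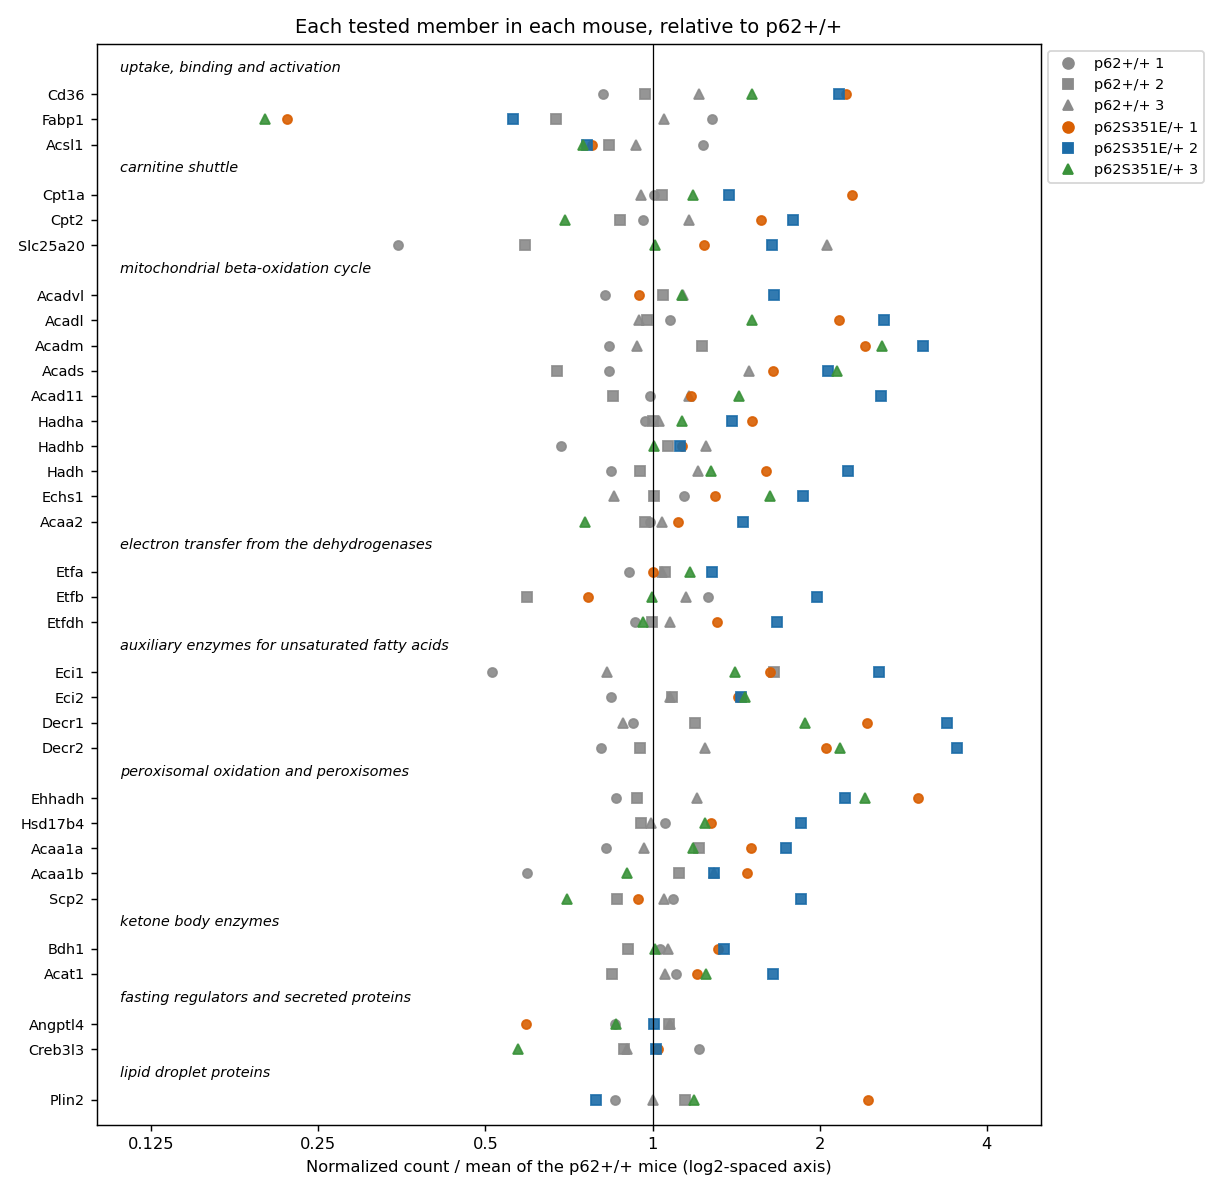
Normalized count of each of the 33 tested genes in each of 6 mice, divided by the mean of the 3 p62+/+ livers, on a log2-spaced axis, with grey symbols for p62+/+ and coloured symbols for p62S351E/+ livers. Most coloured symbols lie right of 1, with p62S351E/+ mouse 2 highest for 19 genes, while those of Fabp1 and Acsl1 lie left of all grey ones.

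The 3 p62S351E/+ mice were not alike. Mouse 2 had the highest value of all 6 mice for 19 of the 33 genes, mouse 1 for 6 and mouse 3 for 2. The number of genes above the highest p62+/+ mouse was 22, 25 and 17 in p62S351E/+ mice 1, 2 and 3 (66.7%, 75.8% and 51.5%, beside 33.8%, 34.5% and 27.7% of all genes tested). The median ratio to the p62+/+ mean was 1.31, 1.67 and 1.18. The summed hepatocyte markers had the same order of the 3 mice, with mouse 2 the highest and mouse 3 the lowest. A link between the 2 was not tested.

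Acadm encodes medium-chain acyl-CoA dehydrogenase, which takes the first step of the mitochondrial cycle on medium chains, and lies on chromosome 3 of GRCm38 (mm10) from 153922357 to 153944632. Its normalized counts were 18.5, 27.2 and 20.7 in p62+/+ livers and 53.3, 68.0 and 57.3 in p62S351E/+ livers. The groups did not overlap, and p62S351E/+ mouse 3 had 2.59 times the p62+/+ mean. Acadm rose from a mean of 22.1 ± 4.52 (SD, n = 3) to 59.6 ± 7.61 (SD, n = 3). This is a log2 fold change of 1.42 (SE 0.24, adjusted p = 0.0387, edgeR). DESeq2, which called 3.14% of its genes higher, gave 1.40 with an adjusted p of 0.0366. The call was lost without p62+/+ mouse 1, 2 or 3 (edgeR adjusted p = 0.20, 0.11 and 0.193) and without p62S351E/+ mouse 1 or 2 (0.0926 and 0.109), and it was kept without p62S351E/+ mouse 3 (0.00226). With library size only and with the hepatocyte scale, its log2 fold change was 0.78 and 0.81 and not called (edgeR adjusted p = 0.424 and 0.381). With the brain markers or Xist as a covariate, it was 1.37 and 1.42 and also not called (edgeR adjusted p = 0.137 and 0.113).

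Ehhadh, on chromosome 16 from 21761287 to 21787807, encodes the peroxisomal bifunctional enzyme and is a classical PPARα target. It had 18.5, 20.2 and 25.9 normalized counts in p62+/+ livers and 64.7, 47.9 and 51.9 in p62S351E/+ livers. The 2 genotypes were far apart, and the lowest p62S351E/+ mouse was well above the highest p62+/+ mouse. The log2 fold change was 1.34 (SE 0.24), and the adjusted p of 0.050 in edgeR lay just above the threshold. It passed with limma-voom (adjusted p = 0.00504), under which 131 genes (2.2%) were called higher, and with edgeR's legacy method (0.0372), which called 1.01% higher, but not with DESeq2 (0.0616). With library size only and with the hepatocyte scale, its log2 fold change was 0.66 and 0.78 (edgeR adjusted p = 0.439 and 0.394). The edgeR adjusted p was 0.207 with the brain-marker covariate. It was 0.00353 without p62S351E/+ mouse 3 and 0.0829 to 0.265 without any other mouse.

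Fabp1 went the other way. This gene, on chromosome 6 from 71199827 to 71205023, encodes the liver fatty acid-binding protein, the main carrier of fatty acids in hepatocyte cytosol and itself a PPARα target. Per kilobase of merged exons it was the most abundant of the 41 genes in p62+/+ livers, with a mean of 329 normalized counts per kilobase, ahead of Scp2 with 93.3 and Acaa2 with 40.6. Its normalized counts were 233, 122 and 191 in p62+/+ livers and 40.0, 102 and 36.4 in p62S351E/+ livers. The groups did not overlap, but p62S351E/+ mouse 2 came close to p62+/+ mouse 2. The log2 fold change was -1.61 (SE 0.44) and was not called by edgeR (adjusted p = 0.188). By DESeq2, the tool that the methods of the study name, it was called lower (log2 fold change -1.64, adjusted p = 0.042), beside 11 genes (0.606%) called lower of the 1814 that DESeq2 gave an adjusted p. Its sign was negative under all 21 other ways of processing, with log2 fold changes between -2.37 (hepatocyte scale, edgeR adjusted p = 0.0171) and -1.34 (without p62S351E/+ mouse 3, 0.0277).

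The sequences upstream of these 3 genes are shown because they are the member that was called, the one next to the threshold and the one that went against the rest. They come from RefSeq (GRCm38.p6), run 5′ to 3′ on the strand of the gene, end at the RefSeq start site or, for Fabp1, at the first base before the GENCODE gene, and lie at chr3:153944644-153944893 (minus strand), chr16:21787835-21788084 (minus strand) and chr6:71199629-71199826 (plus strand). Capitals mark matches to the repeat bound by PPARα and RXR (DR1, searched as AGGNCA, any single base and AGGNCA again, where N is any base) and to the antioxidant response element bound by NRF2, the factor that p62 frees from KEAP1 (ARE, searched as TGACNNNGC), on either strand.
Acadm: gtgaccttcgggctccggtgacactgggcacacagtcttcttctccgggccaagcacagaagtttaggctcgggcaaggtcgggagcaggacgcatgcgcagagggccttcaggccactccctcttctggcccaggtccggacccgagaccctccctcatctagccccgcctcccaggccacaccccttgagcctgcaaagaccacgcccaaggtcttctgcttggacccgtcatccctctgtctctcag
Ehhadh: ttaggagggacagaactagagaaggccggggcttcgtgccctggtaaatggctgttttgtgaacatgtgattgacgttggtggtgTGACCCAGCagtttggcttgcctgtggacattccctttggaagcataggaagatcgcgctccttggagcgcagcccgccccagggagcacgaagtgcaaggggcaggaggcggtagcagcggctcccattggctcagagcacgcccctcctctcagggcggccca
Fabp1: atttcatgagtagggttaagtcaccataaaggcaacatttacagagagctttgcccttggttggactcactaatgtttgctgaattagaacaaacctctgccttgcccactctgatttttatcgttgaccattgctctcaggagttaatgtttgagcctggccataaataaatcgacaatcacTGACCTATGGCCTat

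In the 250 bases before the start site, Fabp1 held the DR1 match TGACCTATGGCCT, read on the opposite strand and ending 54 bases before the start, and an ARE match, TGACCTGGC, directly before the start, in the stretch left out above. Ehhadh held the ARE match TGACCCAGC, 156 bases before the start, and Acadm held no match. Such a window was found for 34 of the 41 genes. Fabp1 was the only one with a DR1 match, and Fabp1 and Ehhadh were the ones with an ARE match. Among all 32851 windows, 0.338% held a DR1 match and 10.2% an ARE match. A match is a string of letters and not a bound site, and functional elements can lie outside these windows.

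**Figure D2:**
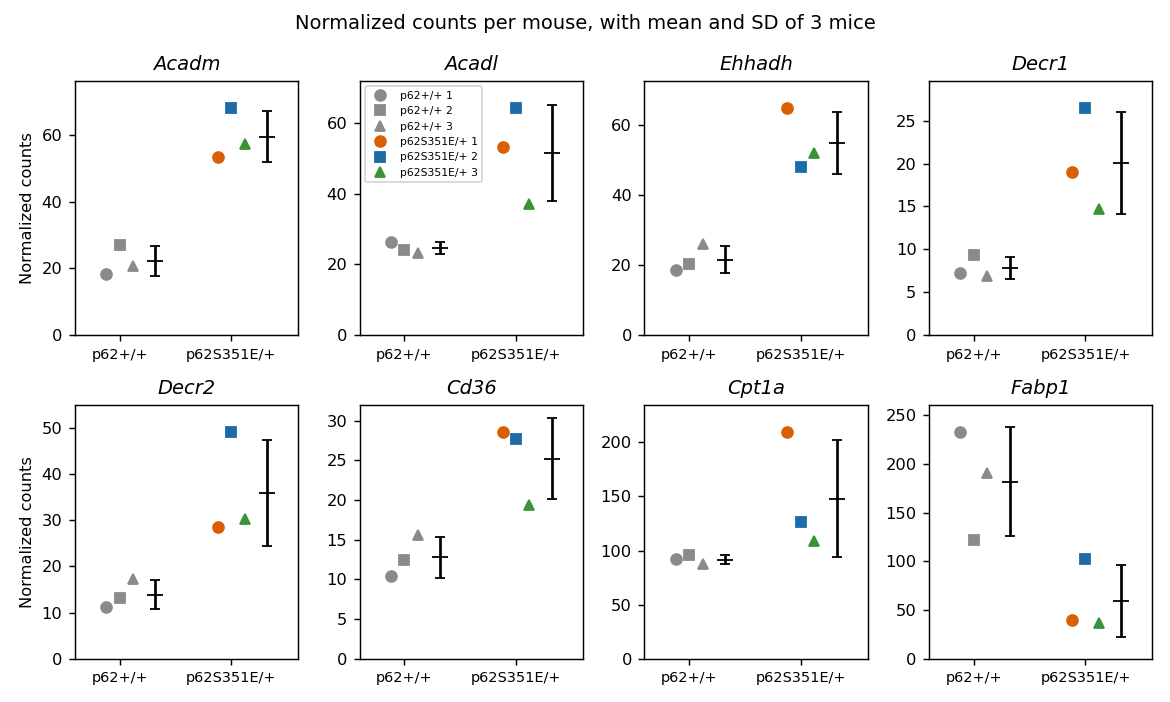
Normalized counts per mouse of 8 members in p62+/+ (grey) and p62S351E/+ (coloured) livers, with the mean and SD of 3 mice beside each group and every axis starting at 0. All 8 are from the members whose genotypes do not overlap, so the panels do not stand for the whole list. Of the 33 tested members, 15 were higher and 2 lower in p62S351E/+ livers without overlap, and the rest overlapped. Over all 5945 genes tested, 714 were higher and 875 lower without overlap. Fabp1 is the only one of the 8 that is lower in p62S351E/+ livers, and Acsl1, the other lower member without overlap, is not shown.

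In the uptake, binding and activation submodule (5 genes, 3 tested), the signs differed. Cd36, the membrane receptor that takes up long-chain fatty acids, had 10.4, 12.4 and 15.5 normalized counts in p62+/+ livers and 28.6, 27.7 and 19.4 in p62S351E/+ livers, without overlap, and a log2 fold change of 0.96 (SE 0.30, edgeR adjusted p = 0.230). Acsl1, the main long-chain acyl-CoA synthetase of liver, was nearly level among p62S351E/+ livers, with 111.6 to 116 normalized counts, all below the 124 to 184 of p62+/+ livers. Its log2 fold change of -0.39 did not pass the test (adjusted p = 0.435, edgeR). Cd36 is also made by macrophages and endothelium. The summed normalized counts of 8 macrophage markers were 83.8 to 105 in p62+/+ livers and 101 to 141 in p62S351E/+ livers, and those of 8 sinusoidal endothelial markers 127 to 199 and 137 to 208. Acot1 and Acot2, the cytosolic and mitochondrial acyl-CoA thioesterases, had at most 4.42 counts in any library.

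Of the carnitine shuttle (4 genes, 3 tested), only Cpt1a had groups without overlap. Cpt1a encodes the outer-membrane transferase at which entry into mitochondria is controlled. It had 92.3, 95.5 and 87.2 normalized counts in p62+/+ livers and 209, 126 and 108 in p62S351E/+ livers, with mouse 1 far above the other two. The log2 fold change of 0.69 (SE 0.27) did not pass the test (adjusted p = 0.309, edgeR) and was -0.11 with library size only. Cpt2, the inner-membrane transferase, and Slc25a20, the carnitine-acylcarnitine translocase, had overlapping groups and log2 fold changes of 0.41 and 0.37, which were -0.38 and -0.32 with library size only.

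All 10 genes of the mitochondrial beta-oxidation cycle were tested, and all 10 log2 fold changes were above 0, between 0.12 for Hadhb and 1.42 for Acadm, with a median of 0.72. With library size only or the hepatocyte scale, Acadvl, Hadha, Hadhb and Acaa2 fell below 0 and the other 6 did not. At an unadjusted p below 0.05, 6 of the 10 were higher, beside 9.02% of all genes tested, and 7 had groups that did not overlap, beside 12%. The median ratio to the p62+/+ mean was 1.40, 1.97 and 1.35 in p62S351E/+ mice 1, 2 and 3.

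The first step of the cycle is shared by acyl-CoA dehydrogenases that differ in the chain length they accept. Acadl, for long chains, had 26.5, 24.1 and 23.3 normalized counts in p62+/+ livers and 53.3, 64.3 and 37.2 in p62S351E/+ livers. The p62+/+ livers were close together, and the lowest p62S351E/+ mouse was mouse 3. Its log2 fold change was 1.06 (SE 0.26, edgeR adjusted p = 0.121), and limma-voom called it higher. Acads, for short chains, had 9.63, 7.76 and 17.3 normalized counts against 19.04, 23.9 and 24.8, a log2 fold change of 0.97 (SE 0.36, edgeR adjusted p = 0.284). Acad11, a further member of the family, had 35.3, 30.3 and 41.5 against 41.9, 92.0 and 51.1 normalized counts, with the p62S351E/+ values spread from just above the p62+/+ range to 2.58 times the p62+/+ mean. The log2 fold change of Acad11 was 0.79 (edgeR adjusted p = 0.310). Acadvl, for very long chains, overlapped between the genotypes and had a log2 fold change of 0.32, or -0.32 with library size only.

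Genes of the later steps had log2 fold changes between 0.12 and 0.77. Hadh, the dehydrogenase of shorter hydroxyacyl chains, had 24.1, 27.2 and 34.5 normalized counts in p62+/+ livers and 45.7, 64.3 and 36.4 in p62S351E/+ livers (log2 fold change 0.77, SE 0.28, edgeR adjusted p = 0.280). Echs1, the short-chain enoyl-CoA hydratase, had 18.5, 16.3 and 13.8 against 20.9, 30.2 and 26.3 (log2 fold change 0.68, edgeR adjusted p = 0.310). Neither gene overlapped between the genotypes. The trifunctional protein is built of the products of Hadha and Hadhb, neighbouring genes on chromosome 5, and these had log2 fold changes of 0.42 and 0.12. Acaa2, the thiolase, had 0.14. The 3 genes were below 0 with library size only, at -0.29, -0.55 and -0.60.

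Electrons from the dehydrogenases pass through the electron transfer flavoprotein (Etfa and Etfb) to its ubiquinone oxidoreductase (Etfdh). All 3 genes overlapped between the genotypes, and their log2 fold changes of 0.21, 0.32 and 0.39 did not pass the test (edgeR adjusted p = 0.662, 0.705 and 0.521). Etfdh, the largest of these, had 21.7, 23.3 and 25.05 normalized counts in p62+/+ livers and 30.5, 39.1 and 22.5 in p62S351E/+ livers, with mouse 3 inside the p62+/+ range. With library size only, all 3 were below 0.

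The auxiliary enzymes, which remove double bonds that the cycle cannot handle, had the highest median of the 9 submodules, 1.11 over 4 tested genes, and no test compared the submodules. Decr2, the peroxisomal 2,4-dienoyl-CoA reductase, had 11.2, 13.2 and 17.3 normalized counts in p62+/+ livers and 28.6, 49.1 and 30.2 in p62S351E/+ livers (log2 fold change 1.37, SE 0.31, edgeR adjusted p = 0.107). Decr1, its mitochondrial counterpart, had 7.22, 9.32 and 6.91 against 19.04, 26.5 and 14.7 (log2 fold change 1.34, SE 0.35, edgeR adjusted p = 0.145). For both reductases every p62S351E/+ mouse was above every p62+/+ mouse, with mouse 2 highest. The counts behind them were few, with 8 to 12 counts of Decr1 in p62+/+ livers. The isomerase genes Eci1 and Eci2 had log2 fold changes of 0.88 and 0.53 (edgeR adjusted p = 0.419 and 0.356), with overlap for Eci1 and none for Eci2, which was at -0.11 with library size only.

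Of the peroxisomal submodule (6 genes, 5 tested), Ehhadh was described above. Hsd17b4, the other bifunctional enzyme of peroxisomes, which handles branched chains and bile acid precursors, had 39.3, 35.7 and 37.1 normalized counts in p62+/+ livers and 47.6, 69.3 and 46.5 in p62S351E/+ livers. The groups did not overlap, and the log2 fold change was 0.54 (SE 0.23, edgeR adjusted p = 0.336), or -0.13 with library size only. Both peroxisomal bifunctional enzymes therefore had separate groups, but the log2 fold change of Ehhadh was larger, and the difference between them was not tested. The thiolase genes Acaa1a and Acaa1b share reads, and neither had whole-number counts in any library, while their sum was whole in all 6. The sum was 71.7 ± 20.4 normalized counts in p62+/+ livers and 93.7 ± 19.5 in p62S351E/+ livers (SD, n = 3 each), and the genotypes overlapped. Scp2, a lipid carrier and thiolase gene, ranged from 213 to 269 in p62+/+ livers and from 174 to 457 in p62S351E/+ livers, with mouse 2 at the top and mouse 3 at the bottom.

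**Figure D3:**
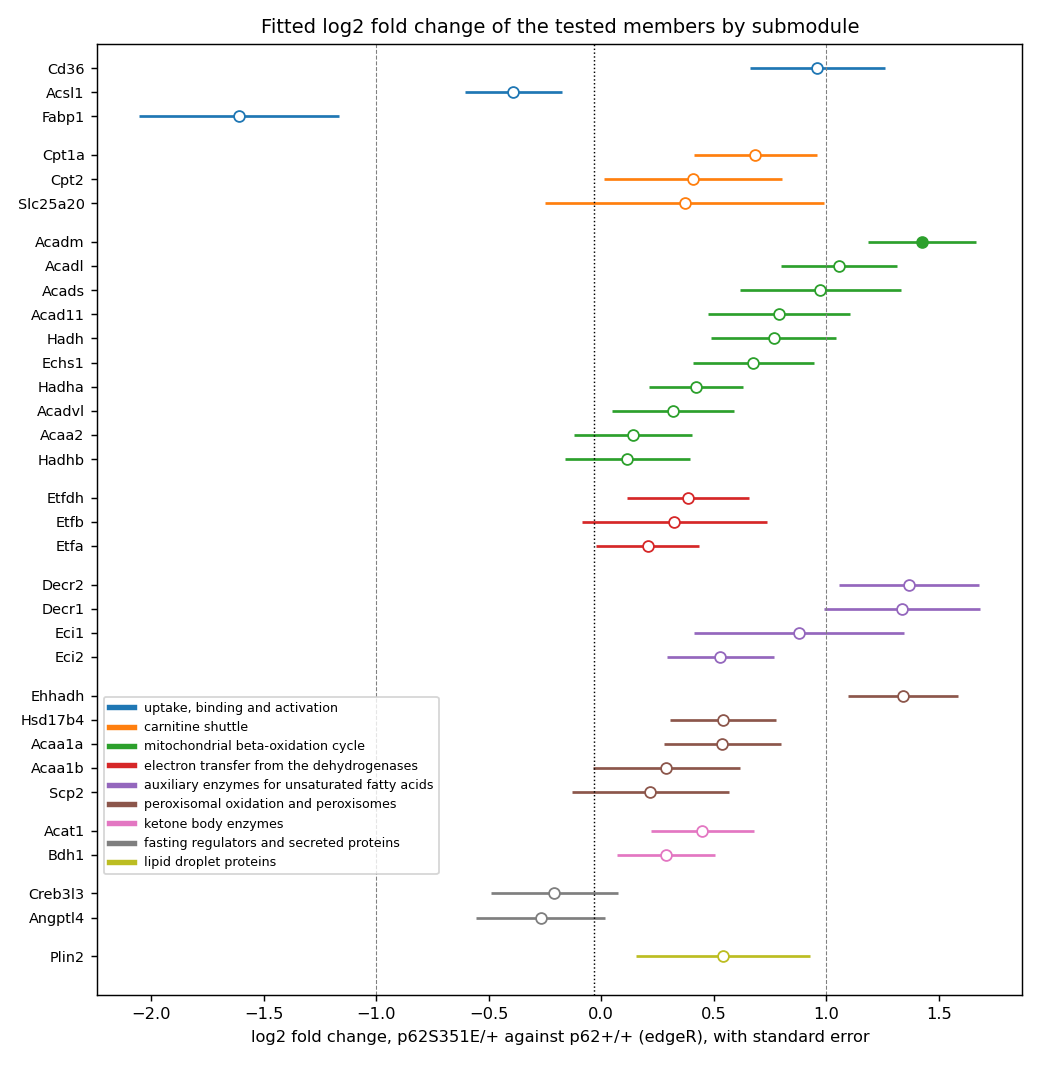
Log2 fold change of p62S351E/+ against p62+/+ livers for the 33 tested genes, with its standard error (SE), coloured by submodule. The dotted line is the median of all 5945 genes (-0.03), dashed lines mark -1 and 1, and the filled symbol is Acadm, the only member called. The 10 genes of the mitochondrial cycle all lie above 0, and Fabp1 is the only member beyond -1.

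Neither ketone body enzyme of the list passed the test. Acat1, the mitochondrial acetoacetyl-CoA thiolase, had 50.6, 38.8 and 48.4 normalized counts in p62+/+ livers and 55.2, 75.6 and 57.3 in p62S351E/+ livers, without overlap (log2 fold change 0.45, SE 0.23, edgeR adjusted p = 0.397). Bdh1, which interconverts acetoacetate and 3-hydroxybutyrate, had 0.29 (adjusted p = 0.549, edgeR) with overlapping groups. Acat1 and Bdh1 were at -0.21 and -0.42 with library size only.

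Of the fasting regulators and secreted proteins (5 genes, 2 tested), none passed the test, and the 3 with too few counts (Pdk4, Fgf21 and Vnn1) are described below. Angptl4, a secreted inhibitor of lipoprotein lipase that PPARα and glucocorticoids induce, had 19.3, 24.1 and 24.2 normalized counts in p62+/+ livers and 13.3, 22.7 and 19.4 in p62S351E/+ livers, a log2 fold change of -0.27 (SE 0.29, edgeR adjusted p = 0.647). Creb3l3, a liver transcription factor that works with PPARα in fasting, had -0.21 (adjusted p = 0.722, edgeR). Both genes overlapped between the genotypes. Plin2, which coats lipid droplets, had 27.3, 36.5 and 31.96 normalized counts against 78.1, 25.2 and 38.0. Only p62S351E/+ mouse 1 was far above the p62+/+ range, and mouse 2 was below it. The log2 fold change of Plin2 was 0.54 (SE 0.39, edgeR adjusted p = 0.526), or -0.25 with library size only.

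The 8 genes below the count filter are given in expected counts, not scaled. Pdk4, the kinase that shuts pyruvate dehydrogenase in fasting, had 6, 4 and 5 counts in p62+/+ livers and 34, 0 and 3 in p62S351E/+ livers. Its high value came from a single mouse, the one with the fewest counts outside the 3 genes. Fgf21, the hepatokine of fasting, had 0, 0 and 1 against 4, 1 and 1 counts, and Vnn1, the pantetheinase that responds strongly to PPARα agonists, 0, 1 and 0 against 1, 4 and 3. Cidec, a droplet protein of fat cells and steatotic liver, had 0 counts in every p62+/+ mouse and 3, 0 and 1 in p62S351E/+ livers. Of 8 adipocyte markers, 6 (Adipoq and Plin1 among them) were at 0 in all libraries. Crat, carnitine acetyltransferase, and Pex11a, which divides peroxisomes, had 5 to 14 and 1 to 7 counts. With no filter, where all 41 genes were fitted, none of these 8 was called, and a count of 0 allows up to 3 counts.

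**Figure D4:**
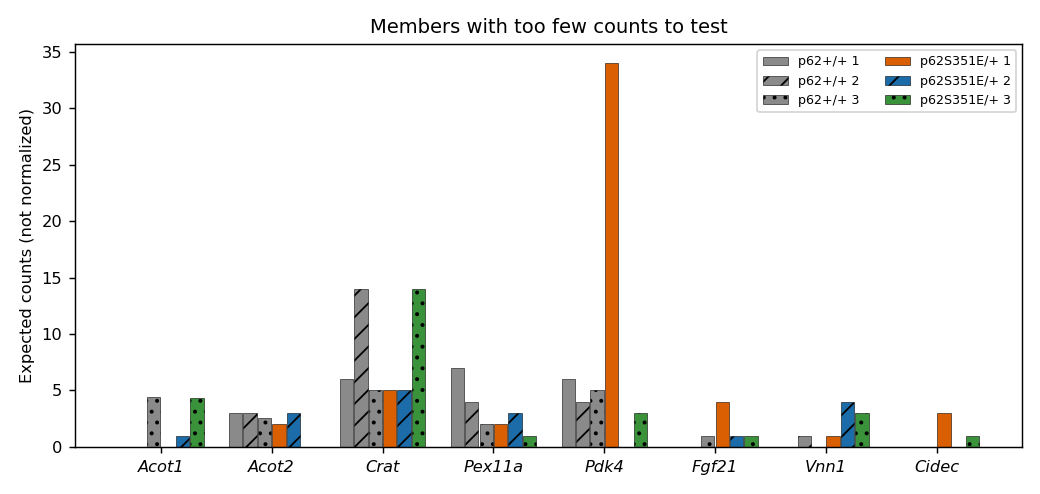
Expected counts, not normalized, of the 8 members with too few counts to test, per mouse, with grey bars for p62+/+ and coloured bars for p62S351E/+ livers. Pdk4 in p62S351E/+ mouse 1 (34 counts) is the only bar above 14.

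For comparison, 115 other genes of the same pathways, fixed by name, were read from the same fit, and 76 of them had enough counts. This list was also chosen with earlier results of these data known and comes from the same 6 libraries. It includes Hnf4a, 1 of the 10 hepatocyte markers. It is therefore no independent check of the members. Acox2 was called higher and 0 genes lower, beside 0.841% and 0.0841% of all genes tested. At an unadjusted p below 0.05, 24 were higher, and 1, Dbi, was lower, beside 9.02% and 5.55% of all genes. The median log2 fold change was 0.43, beside 0.45 for the 33 members and -0.03 for all genes tested, and 57 of the 76 lay above 0, beside 48.0% of all genes.

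Acox2 encodes the peroxisomal oxidase of branched chains and bile acid intermediates. It rose from 34.5, 33.4 and 27.6 to 89.5, 88.2 and 68.2 normalized counts (log2 fold change 1.36, SE 0.22, adjusted p = 0.0341, edgeR), without overlap. As for Acadm, the call was kept without p62S351E/+ mouse 3 (edgeR adjusted p = 0.000717) and lost without any other mouse (0.0829 to 0.184). Phyh, for alpha-oxidation of phytanic acid, and Cat, the peroxide-degrading catalase, had log2 fold changes of 0.91 and 0.96 (edgeR adjusted p = 0.135 and 0.222), with groups that did not overlap.

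Omega-oxidation, in which CYP4A enzymes attack the far end of the chain and ALDH3A2 oxidizes the aldehyde, had the highest median of the other groups, 1.55 over 4 tested genes. Cyp4a14 had 25.7, 32.6 and 44.9 normalized counts in p62+/+ livers and 156, 59.2 and 115 in p62S351E/+ livers (log2 fold change 1.67, SE 0.37, edgeR adjusted p = 0.0991). Aldh3a2 had 12.8, 24.8 and 28.5 against 68.6, 68.0 and 55.8 (log2 fold change 1.53, SE 0.31, edgeR adjusted p = 0.0759). Both passed with DESeq2 (adjusted p = 0.0239 and 0.0366). Cyp4a10 had a log2 fold change of 1.58 (edgeR adjusted p = 0.222), with reads divided among paralogs in all 6 libraries. Cyp4a31, the fourth gene, had overlapping groups and a log2 fold change of 0.44 (edgeR adjusted p = 0.630), also with divided reads.

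Of the remaining genes named for their small p, Acsm5, a medium-chain acyl-CoA synthetase of mitochondria, had a log2 fold change of 1.19, Apoa4, an apolipoprotein of fasting, 2.07, Acad10, a dehydrogenase homolog, 1.54, Ppargc1a, the coactivator PGC-1α, 1.03, and Lpl, lipoprotein lipase, 0.91, with edgeR adjusted p between 0.0773 and 0.224. All 5 had groups that did not overlap. Ppara itself had 57.8, 73.0 and 70.0 normalized counts in p62+/+ livers and 74.3, 100.8 and 77.5 in p62S351E/+ livers (log2 fold change 0.33, SE 0.22, edgeR adjusted p = 0.499). Dbi, the acyl-CoA-binding protein, had 50.6, 41.1 and 48.4 against 19.04, 40.3 and 18.6 normalized counts (log2 fold change -0.84, SE 0.33, edgeR adjusted p = 0.303). Its per-mouse order was like that of Fabp1, with p62S351E/+ mice 1 and 3 low and mouse 2 near the p62+/+ range.

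**Figure D5:**
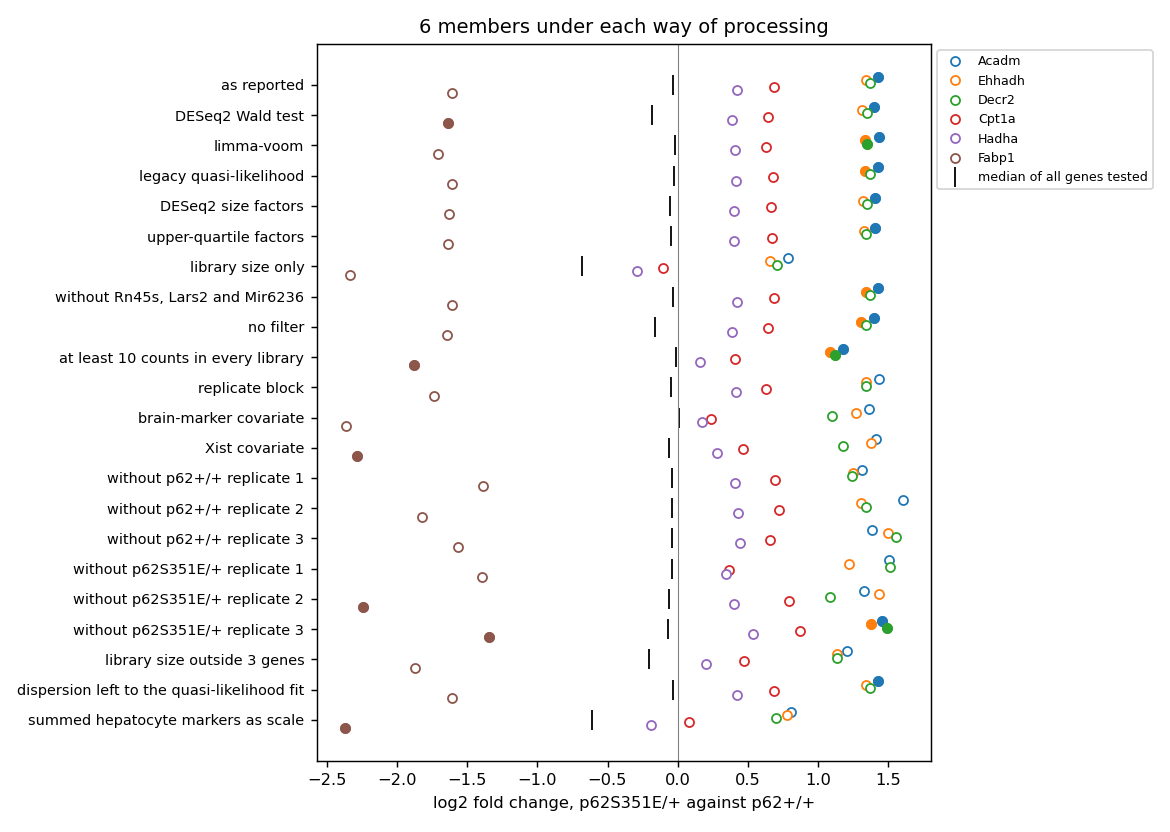
Log2 fold change of 6 members under the reported way of processing and 21 others, with filled symbols for values called (adjusted p below 0.05 and beyond 1 in either direction) and black bars for the median of all genes tested. Fabp1 stays between -2.37 and -1.34, and Acadm, Ehhadh and Decr2 stay above 0.65. Cpt1a and Hadha fall below 0 with library size only, where the median of all genes is -0.68. Hadha is also below 0, at -0.19, with the summed hepatocyte markers as scale.

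Without p62S351E/+ mouse 3, the number of members called was highest. Then Acadl, Acadm, Cd36, Decr1, Decr2 and Ehhadh were called higher and Fabp1 lower, with edgeR adjusted p between 0.00226 for Acadm and 0.0277 for Fabp1. In that fit, 333 of 6390 genes (5.21%) were called higher and 975 (15.3%) lower, and the remaining p62S351E/+ libraries held 20 and 31 counts of the brain markers against 2186 to 2563. The other pathway genes named above for their small p were called higher as well, but they had been picked from a fit that shares 5 of these libraries. Mouse 3 had values above all p62+/+ livers for the 6 members called higher. These 6 were among the 15 members already seen to have separate groups in all mice, so this is no independent check. Mouse 3 was above all p62+/+ livers for 51.5% of the tested members and 27.7% of all genes tested.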

How the data were processed

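RNA from whole P19 livers (3 p62+/+ and 3 p62S351E/+) was depleted of ribosomal RNA and sequenced with 75-bp single-end reads. The authors trimmed the reads (Trim Galore, in the submitters' processing notes), mapped them to mm10 with STAR, ran RSEM to estimate the reads of each gene, and the deposited table holds these expected counts as raw values. Tool versions and annotation are not given in the sources used here. Of the nonzero values, 6.45% were not whole, because RSEM divides shared reads, and values were rounded for testing. Columns were matched to samples by their labels.

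In R 4.3.3, genes were filtered by filterByExpr (minimum count 10), scaled by TMM and compared by edgeR 4.0.16 (estimateDisp and glmQLFit, robust, legacy set to FALSE, then glmQLFTest), with Benjamini-Hochberg adjustment over 5945 genes. The SE of a log2 fold change was taken as its size over the root of the F statistic. For normalized counts, each expected count was divided by its library's effective size (library size times TMM factor) over the geometric mean of the 6 effective sizes. Calls needed an adjusted p below 0.05 with a log2 fold change beyond 1 in either direction. With 134911 to 315436 counts outside 3 genes, values near 10 counts are imprecise, and floors cover counting error only. The p-values measure the spread between these mice.

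Alternatives were limma-voom (limma 3.58.1), DESeq2 1.42.0 with its defaults, the legacy method, other scalings, filters and thresholds, the replicate number as a block, brain markers or Xist as covariates, and leaving out each mouse. Library size outside the 3 genes, dispersion left to the quasi-likelihood fit and the hepatocyte scale were added after seeing the data. On simulated counts for the whole table, of which edgeR tested 5251 genes, it recovered 98.8% of 170 genes changed by a log2 fold change of 2. Of its 177 calls, 5.08% were false. The 170 are the changed genes that passed the filter. The simulation used a single dispersion and the same make-up for all libraries apart from the changed genes, unlike these libraries. It checks that the code runs as meant and does not give the power or the false calls for these data.

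The members and lists were chosen with earlier results of these data known. Values per mouse were given for called members, members with separate groups and a log2 fold change beyond 1, the largest change in each submodule, and members with an unadjusted p below 0.05. Of the other pathway genes, the 12 with the smallest p were to be named, and 1 of them is not reported here. Ppara, Dbi, Cyp4a31, Acsl3, Aacs and Oxct1 were named outside this rule, after their values were seen. Positions, exon lengths (GENCODE M21) and upstream sequences (RefSeq) are those of GRCm38. Marker lists were for hepatocytes, brain, macrophages, sinusoidal endothelium, stellate cells, bile duct, fat, muscle, erythroid cells and exocrine pancreas.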

Additional observations from a re-analysis of the deposited data

How the results depend on the processing

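DESeq2 size factors, upper-quartile factors and dispersion left to the quasi-likelihood fit changed no call and no direction of any gene tabulated. Members called higher numbered 1 as reported, 4 with limma-voom, 2 with the legacy method, without Rn45s, Lars2 and Mir6236 or with no filter, 3 with at least 10 counts in every library, 0 with library size only, library size outside the 3 genes, the hepatocyte scale, either covariate, an adjusted p below 0.01 or the replicate block, and 0 to 6 when each mouse was left out. Members called lower numbered 1 (Fabp1) with DESeq2, the Xist covariate, the hepatocyte scale or at least 10 counts in every library, and 0 to 1 when each mouse was left out. Over all genes, 50 calls higher and 5 lower became 131 and 12 with limma-voom, 57 and 11 with DESeq2, 60 and 8 with the legacy method, 12 and 2 with library size only, 79 and 10 with no filter, 30 and 2 with the brain-marker covariate, 29 and 3 with the Xist covariate, 18 and 1 at an adjusted p below 0.01, 11 higher with the hepatocyte scale, 29 lower with at least 10 counts in every library, 9 lower with library size outside the 3 genes, and 16 to 333 higher and 1 to 975 lower when each mouse was left out, the largest numbers without p62S351E/+ mouse 3.

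The replicate numbers are shared by the genotypes, but same-numbered mice did not deviate together (correlations across genes of -0.091 to 0.076, against -0.097 to 0.098 for other pairs), so the replicate block is no pairing. With it, 18 genes were higher and 1 lower, and Acadm had an adjusted p of 0.126 (edgeR).

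The median of the members, 0.45, was -0.25 with library size only, -0.17 with the hepatocyte scale, 0.20 with at least 10 counts in every library (29 members), 0.23 with the brain-marker covariate, 0.23 with library size outside the 3 genes, and 0.34 to 0.58 when each mouse was left out. Members with separate groups, 15 higher and 2 lower, became 0 and 5 with library size only, beside 68 and 1733 of 5945 genes. With the hepatocyte scale they were 3 and 7, beside 108 and 1708 of 5945 genes. With at least 10 counts in every library they were 8 and 3, beside 305 and 265 of 2343 genes. When each mouse was left out, 15 to 20 members were higher and 2 to 3 lower. The numbers over all genes were then 963 to 1275 and 1113 to 1902, of 6390 to 6696 tested.

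Log2 fold changes that turned negative with library size only and with the hepatocyte scale were, in that order, -0.38 and -0.31 for Cpt2, -0.32 and -0.28 for Slc25a20, -0.32 and -0.33 for Acadvl, -0.29 and -0.19 for Hadha, -0.55 and -0.49 for Hadhb, -0.60 and -0.55 for Acaa2, -0.42 and -0.39 for Etfa, -0.34 and -0.37 for Etfb, -0.33 and -0.29 for Etfdh, -0.11 and -0.048 for Eci2, -0.13 and -0.10 for Hsd17b4, -0.16 and -0.11 for Acaa1a, -0.46 and -0.36 for Acaa1b, -0.52 and -0.54 for Scp2, -0.42 and -0.33 for Bdh1, -0.21 and -0.17 for Acat1, and -0.25 and -0.0017 for Plin2. Cpt1a turned with library size only, at -0.11. Both scalings lower all genes together. With the brain-marker and the Xist covariate, Cpt2 was at -0.55 and -0.23, Acaa2 at -0.43 and -0.26, Etfb at -0.036 and -0.074 and Scp2 at -0.55 and -0.41, and with the former Etfdh was at -0.073 and Acaa1b at -0.16. With at least 10 counts in every library and with library size outside the 3 genes, Hadhb was at -0.13 and -0.10, Acaa2 at -0.13 and -0.10, Etfa at -0.031 and -0.0054 and Scp2 at -0.058 and -0.041. When each mouse was left out, Slc25a20 ran from -0.028 to 1.44 and Hadhb from -0.089 to 0.31 (lowest without p62+/+ mouse 1), Acaa2 from -0.10 to 0.36, Etfb from -0.16 to 0.57 and Scp2 from -0.28 to 0.48 (lowest without p62S351E/+ mouse 2), and Creb3l3 from -0.34 to 0.028 (highest without p62S351E/+ mouse 3). The causes were not tested. Depth limits the 8 members below the count filter and tested members with about 10 counts, such as Decr1, Slc25a20 and Eci1.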

Other observations

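Acsl3, Aacs and Oxct1, read among the other pathway genes and chosen here after their values were seen, were split between the libraries like the brain markers rather than by genotype. Acsl3, a long-chain acyl-CoA synthetase that is abundant in brain, had 42.9, 27.6 and 25.3 expected counts in p62+/+ livers and 5, 4 and 28 in p62S351E/+ mice 1, 2 and 3. Aacs, acetoacetyl-CoA synthetase, had 23, 11 and 13 against 1, 1 and 12. Oxct1, the transferase with which organs other than liver burn ketone bodies, had 32, 30 and 22 against 6, 8 and 32. The summed counts of the 10 brain markers were 2186 to 2563 against 20, 31 and 2364. None of the 3 genes passed the test (edgeR adjusted p = 0.359, 0.363 and 0.539), and the part of the brain transcripts in them was not tested.

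p62S351E/+ mouse 1, whose library had the fewest counts outside the 3 largest genes, had the highest value of all 6 mice for several fasting and lipid droplet genes, also picked after their values were seen. These were Pdk4 with 34 counts where no other library had more than 6, Fgf21 with 4 counts where no other had more than 1, Cidec with 3 where no other had more than 1, Plin2 with 78.1 normalized counts where the next had 38.0, and Cpt1a with 209 normalized counts where the next had 126. Angptl4, another fasting gene, was lowest in the same mouse, at 13.3 normalized counts. Vnn1 had 1 count in this mouse against 4 and 3 in p62S351E/+ mice 2 and 3, and Creb3l3 had 60.9 normalized counts against 72.2 in p62+/+ mouse 1.

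Of the other marker lists, stellate cell and fibroblast markers (8 genes) summed to 159 to 280 normalized counts in p62+/+ livers and 101 to 141 in p62S351E/+ livers, bile duct markers (6) to 23.3 to 82.1 and 23.2 to 70.5, erythroid markers (6) to 75.8 to 166 and 6.97 to 109, adipocyte markers (8) to 0.802 to 8.64 and 1.26 to 6.97, and exocrine pancreas markers (6) to 0 to 3.21 and 0 to 1.55.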
